A study of Mus musculus with 12 samples.

Results

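The CXC and CX3C chemokine ligands were taken as 10 genes of the count table, chosen by symbol from the annotation: Cxcl1, Cxcl2, Cxcl3 and Cxcl5, Cxcl9 and Cxcl10, Cxcl12, Cxcl14, Cxcl16 and Cx3cl1. They are 10 of the 33219 features listed, and all 10 had enough counts to be tested. Expression was measured by bulk RNA-seq of tumor cells isolated with a magnetic kit from subcutaneous tumors of MC38, a mouse colon adenocarcinoma line, grown in C57BL/6 mice of 6 to 8 weeks. There were 4 groups with n = 3 mice in each: WT IgG and A159V IgG, which received an isotype control antibody, and WT anti-PD1 and A159V anti-PD1, which received an antibody to the checkpoint receptor PD1. All tumors came from the MC38 line; A159V cells carried a homozygous Rac1 A159V knock-in made by CRISPR-Cas9, and WT cells did not. Antibody was given every 3 days from day 3, and tumors were harvested on day 13. By the methods of the study, A159V data came from clone 9 unless stated otherwise, so genotype and clone cannot be told apart. The sexes of the mice in each group are not given in the sources used here.

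Chemokines are small secreted proteins that guide leukocytes along a gradient by binding G protein-coupled receptors. Cxcl1, Cxcl2, Cxcl3 and Cxcl5 bind Cxcr2 and attract neutrophils, and their genes are classical targets of NF-kB. Cxcl9 and Cxcl10 bind Cxcr3 on activated T and NK cells and are induced by interferons. Cxcl12 acts on Cxcr4, is made by stromal cells and is scavenged by Ackr3. Cxcl16, the ligand of Cxcr6, and Cx3cl1 (fractalkine), the ligand of Cx3cr1, are made as membrane-anchored proteins and shed by the proteases Adam10 and Adam17. Cxcl14 is a homeostatic chemokine of epithelia and fibroblasts.

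The libraries held between 14053582 and 21949942 counts, the median being 18794752. Values in CPM (read counts relative to the library size as scaled by TMM) are given as mean ± SD over 3 mice, and 3 counts, taken as the detection floor, corresponded to 0.144 to 0.201 CPM, a limit that covers counting error only. The correlation of log2 CPM across genes between replicates was 0.988 or higher in both anti-PD1 groups, and the lowest value was 0.964, in WT IgG. WT IgG replicate 1 stood apart in several ligands and in matrix genes, with 4152 counts of Col1a1 against 962 and 2779 in the other WT IgG samples, so values against WT IgG that shift most when it is left out are given without it as well. In A159V IgG the lowest correlation was 0.972, and replicate 5 was the lowest A159V sample for Cxcl1, Cxcl2, Cxcl3, Cxcl5, Cxcl9 and Cxcl10. Genotype values without that replicate are given for Cxcl5, Cxcl12 and Cxcl14. The labelled cell type is adenocarcinoma, yet epithelial and colon markers were low. Epcam had between 0 and 2 counts and Cdx2 between 0 and 2 in every sample. Among the higher ones, Cdh1 had 4 to 20 counts, Krt19 0 to 25 and Vil1 13 to 34.

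Cxcl10 and Cxcl1 made up nearly all of the measured ligand RNA in every group. Per kilobase of exon, the scale on which genes are compared here, Cxcl10 was highest and Cxcl1 second in all 4 groups. In WT IgG, the level of Cxcl10 was 402 ± 148 CPM per kb and that of Cxcl1 was 205 ± 97.5. Both together held between 93.3% and 97.1% of the summed level of the 10 ligands in each of the 12 samples. All others lay more than 10-fold below Cxcl1 in each group mean. Cx3cl1, Cxcl9 and Cxcl2 filled ranks 3 to 5 in all groups, with WT IgG levels of 7.02 ± 1.48, 5.55 ± 1.20 and 5.26 ± 3.15 CPM per kb, and neighbours in this order differed by less than the larger SD of the pair. Their order changed between groups: Cx3cl1 had rank 3 in WT anti-PD1 at 10.8 ± 1.83 and rank 5 in A159V anti-PD1 at 3.94 ± 0.806, where Cxcl9 (8.60 ± 4.09) and Cxcl2 (7.76 ± 2.10) stood above it. At the low end, Cxcl12 was the lowest of all in every group but WT IgG, with 0.00783 ± 0.0136 CPM per kb in A159V IgG.

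**Figure D1:**
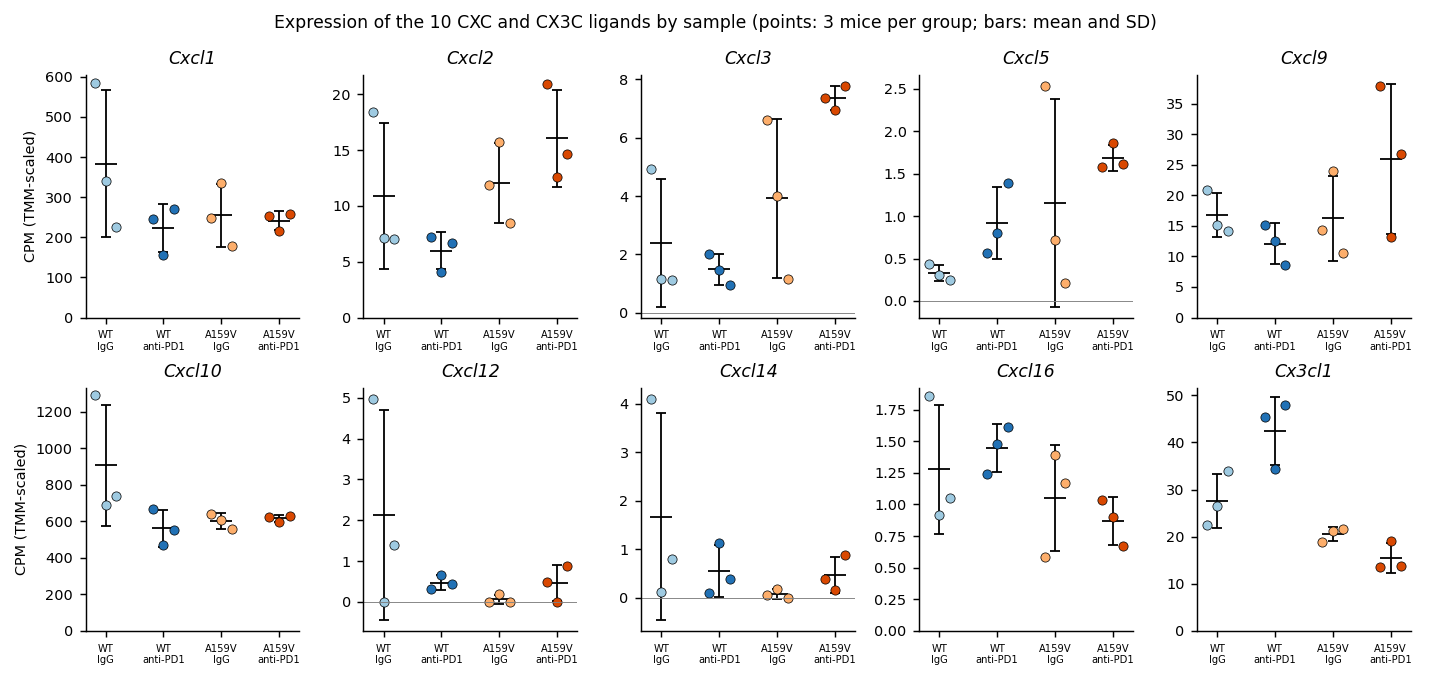
TMM-scaled CPM (y axes, linear, a separate scale for each gene) of the 10 ligands in the 12 samples, by group on the x axes; points are mice and bars are mean and SD. Cxcl1 and Cxcl10 reach 584 and 1289 CPM in WT IgG replicate 1, whereas Cxcl12 and Cxcl14 stay under 5 CPM throughout, and the Cx3cl1 points of WT anti-PD1 all lie above those of A159V anti-PD1.

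To determine how genotype and treatment relate to these ligands, counts were tested with edgeR across all genes, and a gene was called when its adjusted p was under 0.05 and its absolute log2 fold change above 0.3. Between A159V IgG and WT IgG, 2 of the 10 ligands were called, both lower (Cxcl12 and Cxcl14), beside 28% of the 14340 genes tested. Under anti-PD1 the same genotype comparison called 3 (Cxcl2 and Cxcl3 higher, Cx3cl1 lower), beside 21.4% of all genes. None of the 10 was called for anti-PD1 versus IgG in WT, where edgeR called 0.628% of all genes. There, 4 ligands had an unadjusted p under 0.05, beside 3937 of the 14340 genes. DESeq2 called 2 ligands, beside 1478 of the 14340 genes, and limma-voom 0, beside 188. In A159V, anti-PD1 against IgG gave 0 called ligands with edgeR, DESeq2 and limma-voom, 0 at an unadjusted p under 0.05, and 0% of all genes by edgeR. The interaction tests whether the response to anti-PD1 differed between genotypes. It called 0 ligands with edgeR, beside 0.00697% of all genes. At an unadjusted p under 0.05 there were 6 ligands, beside 2517 of the 14340 genes. DESeq2 called 1 ligand, beside 295 of the 14340 genes, and limma-voom 0, beside 1. The 3 values of one group lay wholly above or wholly below those of the other for 2 of the 10 ligands in A159V IgG versus WT IgG (35.8% of all genes), 5 in A159V anti-PD1 versus WT anti-PD1 (56.1%), 3 in WT anti-PD1 versus WT IgG (34.6%) and 1 in A159V anti-PD1 versus A159V IgG (11%). The median log2 fold change of the 10 ligands was -0.35, 0.12, -0.69 and 0.48 in these 4 comparisons, against 0.02, 0.06, 0.01 and 0.00456 for all genes. By class, the median of the 4 neutrophil attractants was 0.43 between the genotypes under IgG and 1.14 under anti-PD1, that of the 2 T cell attractants -0.32 and 0.62, and that of the 4 other ligands -2.31 and -0.43. In these bulk samples, fewer cells of a type and less RNA per cell cannot be told apart. These comparisons share groups, so they are not independent of each other.

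**Figure D2:**
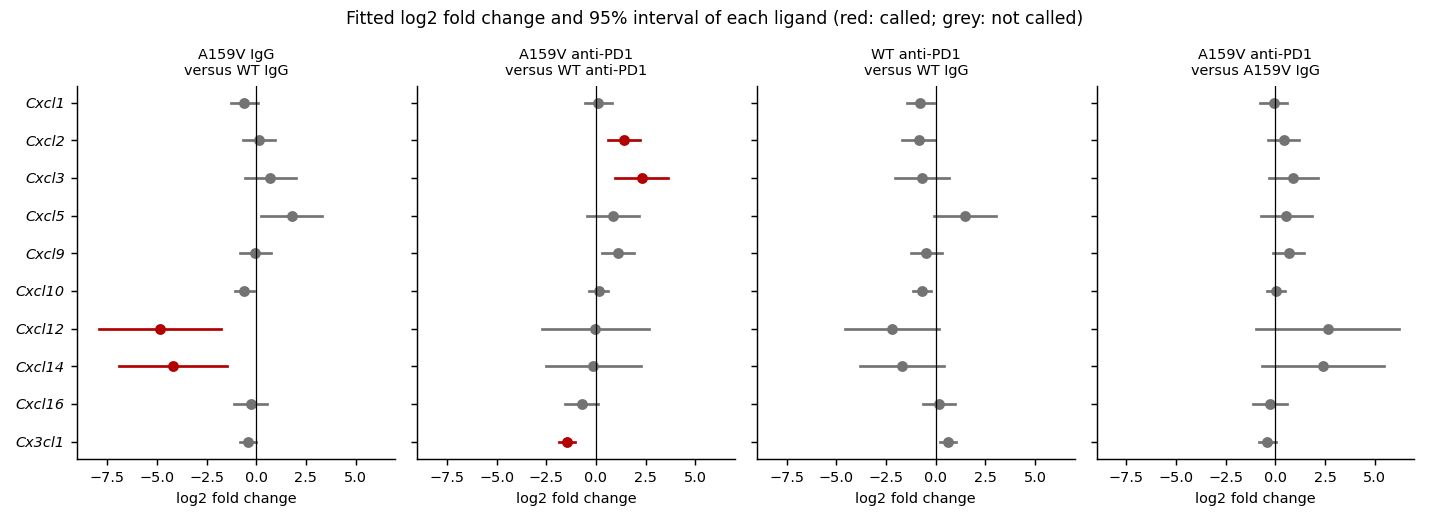
Fitted log2 fold change (points, x axes) with its 95% interval (lines) for each of the 10 ligands in the 4 pairwise comparisons; red marks called ligands and grey the others. Called are Cxcl12 (-4.85) and Cxcl14 (-4.21) between genotypes under IgG, and Cxcl2 (1.41), Cxcl3 (2.31) and Cx3cl1 (-1.46) between genotypes under anti-PD1.

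Of the neutrophil attractants, the minor ligands Cxcl2 and Cxcl3 rose in A159V relative to WT under anti-PD1, while the major one, Cxcl1, was not called in any comparison. The 4 genes lie within 1 cluster on chromosome 5 (mm10): Cxcl5 from 90759360 to 90761624, Cxcl3 from 90786103 to 90789600, Cxcl1 from 90891241 to 90893115 and Cxcl2 from 90903871 to 90905938. Being paralogs, Cxcl1, Cxcl2 and Cxcl3 may share reads to a degree that the stated counting does not allow to be judged. Because Cxcl2 and Cxcl3, which were called, and Cxcl1, which was not, are all held to be NF-kB targets, their promoters are shown, from RefSeq on GRCm38.p6, each a window of 300 bases around the transcription start on the plus strand, at chr5:90890995-90891294, chr5:90903649-90903948 and chr5:90785851-90786150. Capitals mark matches on either strand to a kappa B motif searched as GGGNNNTTCC, where overlapping matches run together.
Cxcl1: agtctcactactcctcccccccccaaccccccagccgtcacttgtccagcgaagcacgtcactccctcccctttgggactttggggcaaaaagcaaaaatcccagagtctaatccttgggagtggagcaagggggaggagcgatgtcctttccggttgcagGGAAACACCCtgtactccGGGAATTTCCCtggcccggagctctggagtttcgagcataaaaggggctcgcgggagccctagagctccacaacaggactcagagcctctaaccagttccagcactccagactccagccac
Cxcl2: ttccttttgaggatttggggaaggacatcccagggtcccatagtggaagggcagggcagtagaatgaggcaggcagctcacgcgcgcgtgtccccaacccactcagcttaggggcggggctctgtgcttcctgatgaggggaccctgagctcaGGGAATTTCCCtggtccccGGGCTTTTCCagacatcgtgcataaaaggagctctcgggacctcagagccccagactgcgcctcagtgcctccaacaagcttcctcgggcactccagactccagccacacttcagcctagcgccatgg
Cxcl3: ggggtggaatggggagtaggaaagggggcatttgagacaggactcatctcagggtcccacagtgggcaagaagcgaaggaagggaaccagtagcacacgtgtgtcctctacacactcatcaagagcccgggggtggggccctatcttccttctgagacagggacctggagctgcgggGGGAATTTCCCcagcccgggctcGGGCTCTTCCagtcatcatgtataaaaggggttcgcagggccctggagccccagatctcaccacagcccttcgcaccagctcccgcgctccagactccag
All 3 windows hold the match GGGAATTTCC, whose first base lies at -71, -97 and -73 from the start site in Cxcl1, Cxcl2 and Cxcl3, and each window holds 3 matches when both strands are counted. The motif occurred in 5.56% of the 32851 promoter windows in the table and in 4 of the 8 ligand windows. A match describes letters, not binding, and windows for Cxcl5 and Cxcl16 were not used here.

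Cxcl1 had the highest level of the 4 neutrophil attractants. Its values were 584, 340 and 227 CPM in WT IgG and 245, 156 and 270 in WT anti-PD1. A159V samples had 248, 336 and 179 CPM under IgG and 253, 215 and 258 under anti-PD1. The groups overlapped throughout, and WT IgG replicate 1 was the highest of all. The log2 fold change was -0.59 between A159V IgG and WT IgG (95% interval -1.27 to 0.09, adjusted p = 0.176) and 0.11 under anti-PD1 (-0.56 to 0.79, adjusted p = 0.826). In WT, anti-PD1 against IgG gave -0.78 (-1.46 to -0.10, adjusted p = 0.14). Both values against WT IgG depended on single samples. The genotype value under IgG was -0.22 without WT IgG replicate 1 (adjusted p = 0.575) and -0.86 without replicate 4 (adjusted p = 0.0417). For anti-PD1 in WT it was -0.35 (adjusted p = 0.573) and -1.05 (adjusted p = 0.0245) with the same samples left out.

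Cxcl2 (ENSMUSG00000058427) was present at 18.4, 7.16 and 7.08 CPM in WT IgG and 7.19, 4.09 and 6.68 in WT anti-PD1. In A159V IgG it had 11.9, 15.7 and 8.50 CPM, and in A159V anti-PD1 20.9, 12.5 and 14.7. Under anti-PD1, every A159V sample lay above every WT sample, with means of 16.1 ± 4.35 and 5.99 ± 1.66 CPM. The increase was 2.66-fold, or 1.41 on the log2 scale with a standard error of 0.38 (adjusted p = 0.0185). Under IgG the groups overlapped and the log2 fold change was 0.15 (95% interval -0.65 to 0.94, adjusted p = 0.794), with a change of sign under upper-quartile scaling (-0.020). In WT, anti-PD1 against IgG gave -0.85 (-1.67 to -0.04, adjusted p = 0.168). Leaving out WT IgG replicate 1 moved these values to 0.69 (adjusted p = 0.109) and -0.25 (adjusted p = 0.739).

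Cxcl3 (ENSMUSG00000029379) followed the same contrast at a lower level. WT samples held 90, 19 and 22 counts under IgG and 39, 22 and 17 under anti-PD1, and A159V samples 125, 83 and 22 under IgG and 135, 131 and 140 under anti-PD1. The A159V anti-PD1 samples were the 3 highest of the 12 in CPM, at 7.37 ± 0.413 against 1.48 ± 0.536 CPM in WT anti-PD1, a 4.94-fold increase (log2 fold change 2.31, standard error 0.62, adjusted p = 0.0184). Between A159V IgG and WT IgG the log2 fold change was 0.71 (95% interval -0.57 to 1.98, adjusted p = 0.39), and it passed at 1.71 without WT IgG replicate 1 (adjusted p = 0.0446). Over all 6 samples left out in turn, it ran from 0.12 to 1.71, with adjusted p up to 0.914. In A159V, anti-PD1 against IgG gave 0.91 (adjusted p = 1), although the groups did not overlap. Both increases under anti-PD1 lost the call when WT anti-PD1 replicate 2 or 3 was left out (Cxcl2 adjusted p = 0.0765 and 0.0572, Cxcl3 0.0595 and 0.0886), Cxcl2 also without A159V anti-PD1 replicate 1 (0.0719) and Cxcl3 without A159V anti-PD1 replicate 3 (0.0538).

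Cxcl5 was scarce, with 8, 5 and 5 counts in WT IgG and 11, 12 and 25 in WT anti-PD1. The counts in A159V were 48, 15 and 4 under IgG and 29, 35 and 29 under anti-PD1. WT IgG had the lowest mean, and the A159V IgG samples spread from 4 to 48 counts. Its log2 fold change was 1.78 between A159V IgG and WT IgG (95% interval 0.26 to 3.30, adjusted p = 0.0761) and 0.87 under anti-PD1 (-0.45 to 2.18, adjusted p = 0.334), where the groups did not overlap. They did not overlap either between WT anti-PD1 and WT IgG, with 1.46 (-0.10 to 3.02, adjusted p = 0.207). Leaving out A159V IgG replicate 5 gave 2.20 under IgG (adjusted p = 0.0124). Over all 6 samples left out in turn, the value ran from 0.51 to 2.20, with adjusted p up to 0.566.

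The interaction did not pass for any of the 4. It was largest for Cxcl3, 1.60 (95% interval -0.23 to 3.43, adjusted p = 0.323), and was 1.27 for Cxcl2 (0.13 to 2.40, adjusted p = 0.255), so a genotype difference called under anti-PD1 and not under IgG is not shown to depend on treatment. Omitting WT IgG replicate 1 lowered both values, to 0.52 for Cxcl3 (adjusted p = 0.79) and 0.65 for Cxcl2 (adjusted p = 0.5). Neutrophils themselves express CXC ligands, and markers of these cells were scarce. Ly6g had 0 counts in all 12 samples and S100a8 between 1 and 15. Summed over the 3 samples of a group, S100a9 had 23 counts in WT anti-PD1 and 3 in A159V anti-PD1, Csf3r 19 and 8, Retnlg 4 and 0, and Mmp8 1 and 2. The summed level of the 6 neutrophil markers was 0.891 to 2.28 CPM in WT anti-PD1 and 0.654 to 0.946 in A159V anti-PD1, and its part in the ligand values was not tested.

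The IFN-induced T cell attractants Cxcl9 and Cxcl10 were not called in any comparison, although some values came close to the limit. Cxcl9 lies on chromosome 5 from 92321347 to 92328079 and Cxcl10 from 92346638 to 92348889, both on the minus strand. The whole of Cxcl10, 2252 bases, lies within Art3 on the opposite strand, which had between 3 and 37 counts in a sample against 6973 to 23590 for Cxcl10, and the strand setting of the counting is not given in the sources used here. Their RefSeq promoter windows are shown for the interferon motifs, at chr5:92328030-92328329 and chr5:92348840-92349139 on the minus strand of GRCm38.p6. Capitals mark the ISRE core, searched as GAAANNGAA, and in Cxcl10 also the kappa B motif.
Cxcl9: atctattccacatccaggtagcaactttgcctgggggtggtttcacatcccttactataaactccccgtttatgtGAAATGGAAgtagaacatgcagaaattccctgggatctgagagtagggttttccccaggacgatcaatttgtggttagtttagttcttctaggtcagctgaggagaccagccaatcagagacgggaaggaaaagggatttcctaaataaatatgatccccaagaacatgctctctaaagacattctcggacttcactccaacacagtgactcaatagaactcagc
Cxcl10: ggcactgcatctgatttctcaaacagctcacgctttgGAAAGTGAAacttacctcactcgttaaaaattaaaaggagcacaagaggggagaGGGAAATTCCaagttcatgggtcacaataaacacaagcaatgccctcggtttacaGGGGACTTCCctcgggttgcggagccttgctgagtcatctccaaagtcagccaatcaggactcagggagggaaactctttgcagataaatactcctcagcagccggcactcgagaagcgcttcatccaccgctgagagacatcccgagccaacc
In Cxcl10 the ISRE core match GAAAGTGAA begins at -213 from the start site, and the kappa B matches GGGAAATTCC and GGGGACTTCC begin at -159 and -104. In Cxcl9 the ISRE core match GAAATGGAA begins at -175. The ISRE core occurred in 8.56% of all windows and in 3 of the 8 ligand windows (Cxcl9, Cxcl10 and Cxcl14). The GAS motif, searched as TTCNNNGAA, occurred in 8.3% of all windows and in 1 ligand window, that of Cxcl14.

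Cxcl10 had 1289, 687 and 740 CPM in WT IgG and 668, 468 and 550 in WT anti-PD1. Values in A159V were 640, 608 and 555 CPM with IgG and 622, 596 and 631 with anti-PD1. Each WT IgG sample lay above every WT anti-PD1 and A159V IgG sample, with replicate 1 far above the others, while the 3 other groups lay together between 468 and 668 CPM. The log2 fold change was -0.59 in A159V IgG versus WT IgG (standard error 0.21, adjusted p = 0.0552) and -0.69 in WT anti-PD1 versus WT IgG (0.21, adjusted p = 0.0907). DESeq2 called both, at -0.68 (adjusted p = 0.0145) and -0.71 (adjusted p = 0.029). The first value was also called with 5 other choices of scaling, filter or depth and lay at -0.31 without WT IgG replicate 1 (adjusted p = 0.114), whereas it passed without replicate 2 of WT IgG (-0.83, adjusted p = 0.0206) or replicate 4 (-0.71, adjusted p = 0.03). The second was -0.35 with WT IgG replicate 1 left out (adjusted p = 0.266) and passed with WT IgG replicate 4 left out (-0.82, adjusted p = 0.023). Between the genotypes under anti-PD1, the log2 fold change of Cxcl10 was 0.13 (95% interval -0.33 to 0.59, adjusted p = 0.693), and in A159V the response to anti-PD1 was 0.04 (-0.42 to 0.50, adjusted p = 1).

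Cxcl9 was far lower, at 20.9, 15.1 and 14.2 CPM in WT IgG and 15.2, 12.6 and 8.52 in WT anti-PD1. It had 14.3, 24.0 and 10.5 CPM in A159V IgG and 37.9, 13.2 and 26.7 in A159V anti-PD1. Replicates 1 and 3 of A159V anti-PD1 were the 2 highest of the 12 samples, and replicate 2 lay within the WT range. The log2 fold change between the genotypes was -0.04 under IgG (95% interval -0.83 to 0.75, adjusted p = 0.946) and 1.10 under anti-PD1 (0.30 to 1.90, adjusted p = 0.0508). The latter passed with DESeq2 (1.03, adjusted p = 0.0278) and without A159V anti-PD1 replicate 2 (1.42, adjusted p = 0.0157). Over all 6 samples left out in turn, it ran from 0.73 to 1.42, with adjusted p up to 0.206. The interaction was 1.14 for Cxcl9 (adjusted p = 0.281) and 0.73 for Cxcl10 (adjusted p = 0.257), the latter being 0.38 when WT IgG replicate 1 was omitted (adjusted p = 0.415).

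The ratio of the major ligands of both classes differed less between groups than between samples of a group. The summed level of the neutrophil attractants was 211 ± 101 CPM per kb in WT IgG and 123 ± 32.8 in WT anti-PD1, and in A159V it was 143 ± 44.2 with IgG and 140 ± 13.9 with anti-PD1. Cxcl9 and Cxcl10 together had 408 ± 149, 253 ± 45.2, 272 ± 19.9 and 282 ± 11.7 CPM per kb in the same groups. Per kb, Cxcl10 exceeded Cxcl1 in all 12 samples, by a ratio between 1.51 and 2.72, and the group means of the ratio lay between 2.08 ± 0.540 (A159V IgG) and 2.15 ± 0.412 (WT anti-PD1), less apart than the SD within any group. Within the neutrophil class, Cxcl2 stood closer to Cxcl1 in A159V. The ratio of Cxcl1 to Cxcl2 per kb was 35.0, 52.4 and 35.3 in WT IgG and 37.5, 42.1 and 44.6 in WT anti-PD1. It was 23.0, 23.6 and 23.3 in A159V IgG and 13.3, 18.9 and 19.4 in A159V anti-PD1, so that every A159V sample lay below every WT sample. The ratio of Cxcl10 to Cxcl9 lay between 34.0 and 70.7 in A159V IgG and between 49.7 and 86.5 over both WT groups, and in A159V anti-PD1 it reached 60.3 at most, with overlap. These ratios are descriptions with no test.

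**Figure D3:**
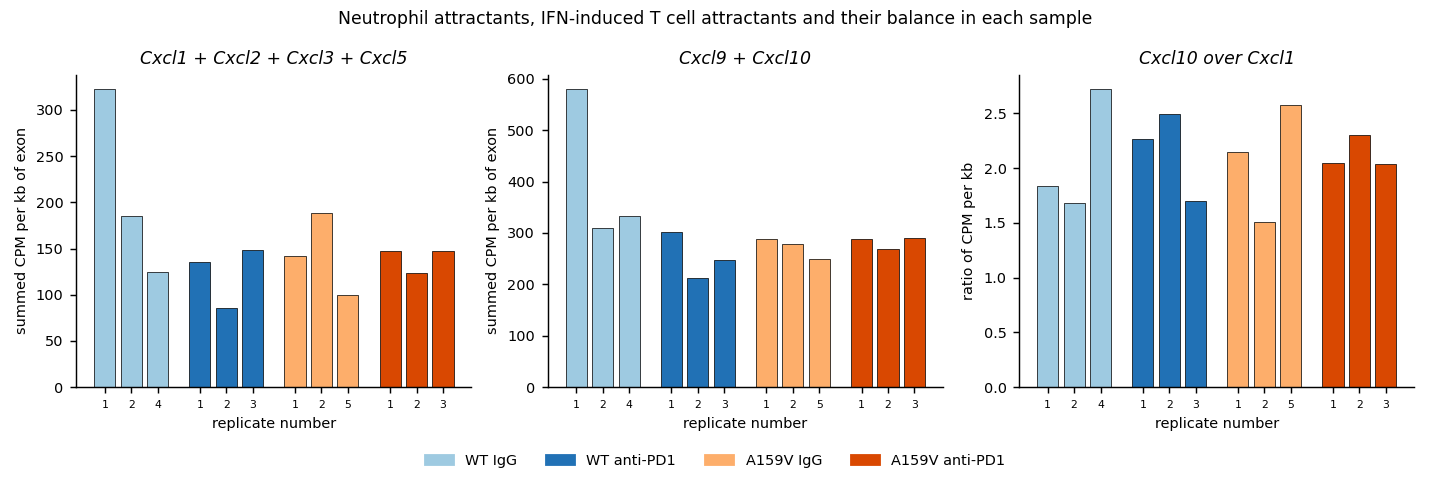
Summed level in CPM per kb of exon (y axes from 0) of Cxcl1, Cxcl2, Cxcl3 and Cxcl5 (left) and of Cxcl9 and Cxcl10 (middle), and the ratio of Cxcl10 to Cxcl1 (right), with 1 bar per sample in the order of the replicate numbers and colors for the groups. WT IgG replicate 1 is the highest in both sums, and the ratio stays between 1.51 and 2.72 in all 12 samples.

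Cx3cl1 (ENSMUSG00000031778) had the smallest adjusted p of the 10 ligands. It lies on chromosome 8 from 94772009 to 94782427. Its values were 22.4, 26.5 and 33.9 CPM in WT IgG and 45.3, 34.3 and 47.9 in WT anti-PD1. The A159V samples had 18.9, 21.2 and 21.6 CPM under IgG and 13.6, 19.1 and 13.7 under anti-PD1. All 6 A159V samples thus lay below all 6 WT samples, and the 3 WT anti-PD1 samples were the highest. Under anti-PD1, Cx3cl1 fell in A159V relative to WT from 42.5 ± 7.21 to 15.5 ± 3.17 CPM, a 2.75-fold difference (log2 fold change -1.46, standard error 0.19, adjusted p = 0.000333). The call held with each of the 6 samples left out in turn, at values from -1.63 to -1.36. Under IgG the log2 fold change was -0.42 (standard error 0.19, adjusted p = 0.114), and it passed with upper-quartile scaling (-0.56, adjusted p = 0.0485) and when WT IgG replicate 1 was left out (-0.62, adjusted p = 0.039). In WT, anti-PD1 against IgG gave 0.62 (standard error 0.19, adjusted p = 0.0873), which passed with DESeq2 (0.61, adjusted p = 0.0351) and with WT IgG replicate 4 left out (0.80, adjusted p = 0.0152). In A159V the same contrast was -0.41 (95% interval -0.83 to 0.01, adjusted p = 1). The interaction was -1.03 (standard error 0.27, adjusted p = 0.172), did not pass in edgeR, passed in DESeq2 (-1.02, adjusted p = 0.033) and passed when WT IgG replicate 4 was omitted (-1.21, adjusted p = 0.0318). With each sample left out in turn, the genotype value under IgG ran from -0.62 to -0.25, with adjusted p up to 0.344. The value for anti-PD1 in WT ran from 0.49 to 0.80 (adjusted p up to 0.283), and the interaction from -1.21 to -0.91 (up to 0.36).

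Most tested markers of leukocytes, T and NK cells and endothelial cells were lower in A159V anti-PD1 than in WT anti-PD1. The macrophage sum overlapped, at 31.8 to 46.8 CPM in WT anti-PD1 and 41.8 to 45.1 in A159V anti-PD1. It rested mostly on Cd68 and Lyz2, while C1qb had 29 counts summed over WT anti-PD1 and 11 over A159V anti-PD1. The summed level of the 6 pan-leukocyte markers was 34.9 to 49.8 CPM in WT anti-PD1 and 10.8 to 13.9 in A159V anti-PD1, and that of the 8 T and NK cell markers was 17.0 to 33.3 against 0.599 to 0.946. Ptprc had 174, 212 and 134 counts in WT anti-PD1 against 1, 1 and 5. Rac2, also of the pan-leukocyte list, did not follow, with 394 counts summed over WT anti-PD1 and 438 over A159V anti-PD1. The 6 endothelial markers, from cells that are known to make Cx3cl1, summed to at most 14.6 CPM in WT anti-PD1, with a median of 13.3, and to 6.91 to 8.62 in A159V anti-PD1, and 2 of them were tested. Both were called lower in A159V anti-PD1, beside 21.4% of all genes called. Cdh5 had 247, 156 and 193 counts in WT anti-PD1 against 132, 111 and 132 (-0.74, adjusted p = 0.0355), and Pecam1 29, 30 and 43 against 18, 14 and 19 (-1.08, adjusted p = 0.0401). Kdr, Tek, Emcn and Cldn5 had 6 counts or fewer in every sample. With a score of the pan-leukocyte markers as a covariate, the log2 fold changes were 1.25 for Cxcl2, 3.24 for Cxcl3 and -1.22 for Cx3cl1, none was called (adjusted p = 0.996 for each), and 2 of the 14340 genes were called in place of 3075. Since 5 of the 6 markers in the score were themselves called lower in this contrast, the fit cannot separate leukocyte content from genotype. Whether cells of these marker lists contribute to the values of Cxcl2, Cxcl3, Cxcl9 or Cx3cl1 was not tested.

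Cxcl12 and Cxcl14 fell in A159V IgG relative to WT IgG, at levels close to the detection floor and on the strength of a few samples. Cxcl12 (ENSMUSG00000061353) lies on chromosome 6 from 117168535 to 117181367 and Cxcl14 (ENSMUSG00000021508) on chromosome 13 from 56288643 to 56296551. Cxcl12 had 91, 0 and 28 counts in WT IgG and 0, 4 and 0 in A159V IgG. In both anti-PD1 groups it had few counts, 6, 10 and 8 in WT and 9, 0 and 16 in A159V. Cxcl14 had 75, 2 and 16 counts in WT IgG, 1, 4 and 0 in A159V IgG, 2, 17 and 7 in WT anti-PD1 and 7, 3 and 16 in A159V anti-PD1. For both genes, WT IgG replicate 1 held most of the counts and WT IgG replicate 2 lay within the range of A159V IgG. The fitted log2 fold changes were -4.85 for Cxcl12 (standard error 1.43, adjusted p = 0.0244) and -4.21 for Cxcl14 (1.25, adjusted p = 0.0256), and at these counts the fitted size depends on the model. Without WT IgG replicate 1 they were -3.38 (adjusted p = 0.112) and -2.48 (adjusted p = 0.159), neither called. The calls were also lost without A159V IgG replicate 1 (adjusted p = 0.0811 and 0.0805) and without replicate 5 (0.0536 and 0.0558), and with limma-voom (0.209 and 0.101). Under anti-PD1 the genotypes did not differ detectably at this depth, with log2 fold changes of -0.03 (95% interval -2.73 to 2.67) and -0.13 (-2.51 to 2.25).

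Most of the 8 fibroblast and pericyte markers fell in A159V under both treatments. Cxcl12 and Cxcl14 were called under IgG and not under anti-PD1, with interactions that did not pass (4.82 and 4.08, adjusted p = 0.254 and 0.261). The markers summed to 558 to 1017 CPM in WT IgG and 239 to 301 in A159V IgG, and 5 of 8 were called lower, beside 28% of all genes called. Pdgfra and Acta2 went the other way there, with 4156 and 90 counts summed over A159V IgG against 2551 and 69 over WT IgG, neither called higher. Under anti-PD1 the 8 markers summed to 771 to 1636 CPM in WT and 232 to 310 in A159V. Of these, 6 were called lower and 1 (Acta2) higher, beside 21.4% of all genes called. WT IgG replicate 2, which had 0 counts of Cxcl12 and 2 of Cxcl14, had the marker sum of 558 CPM, above every A159V sample. By the root mean square difference of centred log2 CPM over the 12 samples, the genes most like Cxcl12 were Gpx3, a secreted glutathione peroxidase (0.67), and Postn, the matrix protein periostin (0.69). Those most like Cxcl14 were Cpxm1 (0.42) and Col1a2, a chain of type I collagen (0.42). The CPM of Gpx3 was 26.8, 0.367 and 3.26 in WT IgG and 0.264, 0.624 and 0.531 in A159V IgG, and that of Col1a2 was 178, 13.2 and 54.6 against 8.83, 14.3 and 9.83. In all 4 neighbours, WT IgG replicate 1 was the highest of the 12 samples and WT IgG replicate 2 lay within the range of A159V IgG. The part of stromal cells in the values of Cxcl12 and Cxcl14 was not tested.

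**Figure D4:**
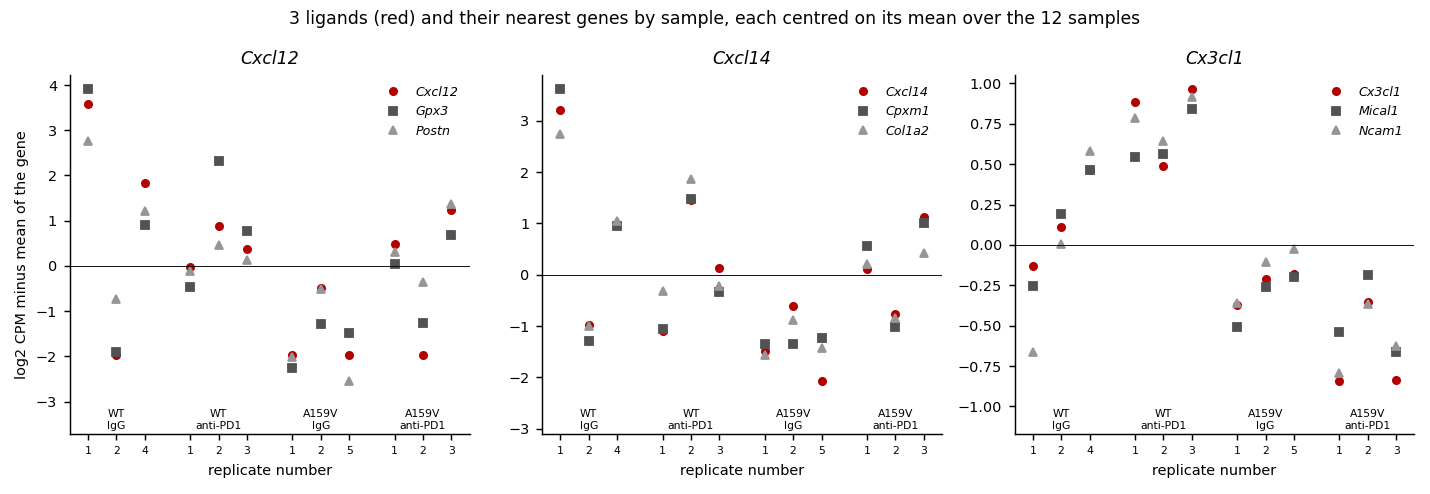
Log2 CPM of Cxcl12, Cxcl14 and Cx3cl1 (red circles) and of the 2 genes nearest to each (grey), with the mean of each gene over the 12 samples subtracted (y axes) and the samples on the x axes by group and replicate number. Cxcl12 and Cxcl14 peak with their neighbours in WT IgG replicate 1, whereas Cx3cl1, Mical1 and Ncam1 are highest in WT anti-PD1.

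The genes nearest to Cx3cl1 were Mical1, an actin-oxidizing monooxygenase (0.17), and Ncam1, a neural cell adhesion molecule (0.19). Mical1 had 26.9, 27.2 and 33.1 CPM in WT anti-PD1 against 12.6, 16.2 and 11.6 in A159V anti-PD1. Cxcl10 had the closest neighbours of all, Cenpm, a centromere protein (0.08), and Hmgb2, a chromatin protein (0.12). For the other ligands the nearest genes were Gtf3c6 and Gm26510 for Cxcl1 (0.21 and 0.21), Hhipl2 and Afp for Cxcl2 (0.27 and 0.33), Prl2c5 and Prl2c2 for Cxcl3 (0.38 and 0.47), Srgn (serglycin) and Zfp990 for Cxcl5 (0.55 and 0.56), Tgtp1 and Ms4a4d for Cxcl9 (0.35 and 0.35) and Mettl27 and Fcgrt for Cxcl16 (0.23 and 0.23). Prl2c5 and Prl2c2 are close paralogs, so reads may be split between them, and Tgtp1 is an interferon-inducible GTPase. The spread of the ligands themselves on this scale ran from 0.34 for Cxcl10 to 1.70 for Cxcl12, against which these differences are to be read, and likeness of pattern is a description over 12 samples that share groups.

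Cxcl16 was low and was not called in any comparison. The gene lies on chromosome 11 from 70453983 to 70459984 and overlaps Zmynd15 on the opposite strand by 552 bases. WT samples had 34, 15 and 21 counts with IgG and 24, 22 and 29 with anti-PD1, and A159V samples 11, 29 and 22 with IgG and 19, 17 and 12 with anti-PD1. Under anti-PD1 every A159V value in CPM lay below every WT value (0.869 ± 0.186 against 1.44 ± 0.188 CPM), with a log2 fold change of -0.73 (95% interval -1.56 to 0.11, adjusted p = 0.195). Under IgG the groups overlapped, with -0.28 (-1.10 to 0.53, adjusted p = 0.608). Zmynd15 had 32, 29 and 42 counts in WT anti-PD1 and 12, 13 and 13 in A159V anti-PD1, and without a stated strand setting reads in the overlap cannot be assigned with certainty.

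Of the receptors, Ackr3 fell in A159V under both treatments and most others were barely detected. Ackr3, the scavenger of Cxcl12, had 211, 118 and 204 counts in WT IgG and 9, 4 and 11 in A159V IgG. Under anti-PD1 it had 140, 102 and 119 counts in WT and 15, 5 and 15 in A159V, and its log2 fold changes were -4.53 and -3.43 (adjusted p = 2.64e-05 and 9.83e-05). No A159V sample came near a WT sample. Cx3cr1, the receptor of Cx3cl1, had 22, 15 and 12 counts in WT IgG and 6, 3 and 5 in A159V IgG (log2 fold change -1.88, adjusted p = 0.0236), and under anti-PD1 the value was 0.34 (adjusted p = 0.723). Cxcr4 had 26, 15 and 20 counts in WT anti-PD1 and 0 in all 3 A159V anti-PD1 samples, at least 21.5-fold lower against a floor of 3 counts over the group (adjusted p = 0.00191). Cxcr6 had 13, 26 and 13 counts against 0, 2 and 2 (adjusted p = 0.0166). Cxcr2 and Cxcr3, the receptors of the neutrophil and T cell attractants, had at most 7 counts in any sample and were not tested. In all, 2 of the 6 receptors tested were called lower under IgG, where the list's median was -0.91 on the log2 scale, and 3 of 6 under anti-PD1, with -1.93, also when Cxcr4 was set to its bound. Over all genes 28% and 21.4% were called in these comparisons, which is the background for this list and those that follow. The other CXC and C ligands Cxcl13, Cxcl15, Cxcl17, Pf4, Ppbp and Xcl1 had at most 15 counts in any sample and were not tested, and Cxcl11 was not analysed here.

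Of the 21 genes tested upstream of the neutrophil attractants, 2 were called higher and 1 lower in A159V IgG versus WT IgG, the median log2 fold change being 0.04, and 0 higher and 4 lower under anti-PD1, with -0.13, to be read against 28% and 21.4% of all genes. Nfkbia, an NF-kB inhibitor and itself an NF-kB target, was not called (-0.47 and 0.24, adjusted p = 0.0948 and 0.424), nor was Nfkbiz, a coactivator of NF-kB (0.16 and -0.07, adjusted p = 0.553 and 0.827). Tnfaip3 (A20), an NF-kB feedback inhibitor, fell under anti-PD1 (-1.15, adjusted p = 0.00562). Il1rn, the IL-1 receptor antagonist, rose under IgG, with 59, 66 and 36 counts in A159V and 5, 5 and 5 in WT (3.28, adjusted p = 0.000199). It also rose with anti-PD1 in WT, to 34, 20 and 21 counts (2.35, adjusted p = 0.0307). Il1rn was the 1 gene of the 21 called there, beside 0.628% of all genes. Tnfrsf1a, a TNF receptor, rose under IgG (0.62, adjusted p = 0.00182). Among genes of mRNA decay, Zfp36l1 fell under both treatments (-1.26 and -1.86, adjusted p = 0.00277 and 0.000322) and Zc3h12a, which encodes the RNase regnase-1, under anti-PD1 (-0.58, adjusted p = 0.0436). Il1b, an IL-1 cytokine of myeloid cells, had 52, 37 and 34 counts in WT anti-PD1 and 1, 7 and 5 in A159V anti-PD1 (-3.29, adjusted p = 0.0306), and Il1a had at most 5 counts and was not tested.

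Upstream of the IFN-induced ligands, the receptor gene Ifngr1 fell in A159V under both treatments. Its log2 fold change was -0.49 under IgG (adjusted p = 0.0108) and -0.79 under anti-PD1 (adjusted p = 0.000925), with 839, 668 and 923 counts in WT IgG and 578, 685 and 584 in A159V IgG. Irf1, a transcription factor of the interferon response, fell under IgG (-0.78, adjusted p = 0.00469) and had a log2 fold change of -0.02 under anti-PD1 (adjusted p = 0.949). Stat2 fell under IgG (-0.61, adjusted p = 0.014) and the kinase Jak1 rose (0.67, adjusted p = 0.0152). Socs1, a feedback inhibitor of JAK kinases, fell in both (-0.86 and -0.87, adjusted p = 0.0144 and 0.0163) and Socs3 under anti-PD1 (-0.82, adjusted p = 0.0144). Of 13 genes tested, 1 was higher and 4 lower under IgG, with a median of -0.15, and 0 higher and 3 lower under anti-PD1, with -0.24. Ifng had at most 2 counts in any sample.

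Of the 6 sheddases and chemokine-cleaving peptidases, Adam17 rose slightly in A159V IgG versus WT IgG (0.49, adjusted p = 0.0498), and Adam10 had 0.49 with an adjusted p of 0.179. Under anti-PD1 both were near 0 (0.04 and -0.22, adjusted p = 0.885 and 0.588). The matrix metalloproteinases Mmp2 and Mmp9, which can cleave chemokines, fell under both treatments, Mmp2 by 2.02 and 1.54 and Mmp9 by 2.51 and 3.21 on the log2 scale (adjusted p between 7.99e-05 and 0.00297). Mmp14 fell under anti-PD1 (-0.52, adjusted p = 0.0233). In this list 1 gene was called higher and 2 lower under IgG (median -0.98), and 0 higher and 3 lower under anti-PD1 (median -0.80).

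**Figure D5:**
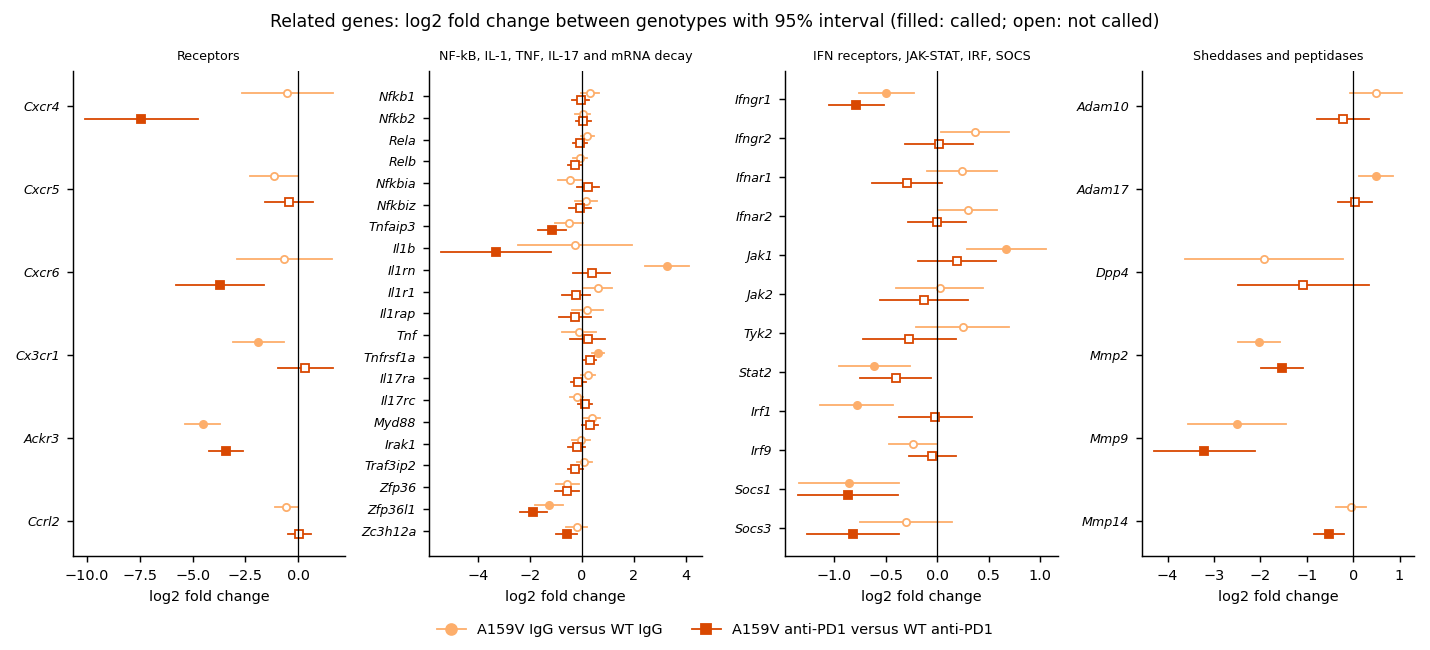
Log2 fold change (x axes, a separate scale for each panel) with 95% interval for tested receptors, upstream genes (1 not drawn) and proteases, between A159V and WT under IgG (light circles) and under anti-PD1 (dark squares); filled symbols are called. Ackr3, Zfp36l1, Ifngr1, Socs1, Mmp2 and Mmp9 are filled on the negative side in both comparisons, and the fitted value of Cxcr4 under anti-PD1 is drawn although that group had 0 counts.

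The remaining marker lists describe what the isolated cells could hold besides tumor cells. For the macrophage list, which includes Lyz2 and Cd68, the sum was 25.5 to 30.4 CPM in WT IgG and 39.3 to 57.5 in A159V IgG, with 1 of 3 tested markers (Cd68) called higher. Cd68 and Lyz2 made up most of that sum, and other markers of the list were scarce, with 33 counts of C1qb summed over WT IgG and 18 over A159V IgG, 15 and 6 of C1qa, 10 and 7 of Mrc1, 5 and 1 of Adgre1, 6 and 7 of C1qc and 13 and 17 of Csf1r. The dendritic cell list had 2 of 4 tested markers called lower under each treatment (Clec9a and Ccr7), and its sum was 16.7 to 22.3 CPM in WT IgG against 13.5 to 15.9 in A159V IgG. Other markers of this list did not follow. Summed over a group, Zbtb46 had 752 counts in WT IgG and 745 in A159V IgG, and 762 and 742 under anti-PD1. Flt3 had 47 and 29 under IgG, and 20 and 39 under anti-PD1, higher in A159V. Of the pan-leukocyte list, 3 of 6 were lower and 1 higher in A159V IgG versus WT IgG, and 5 of 6 lower under anti-PD1. T and NK cell markers were lower in 2 and 5 of 5 tested, fibroblast and pericyte markers in 5 and 6 of 8 (with Acta2 higher under anti-PD1), and endothelial markers in 0 and 2 of 2. Of the epithelial and colon list 2 markers were tested, 0 called under IgG and 1 lower (Cdh1) under anti-PD1. The 1 neutrophil marker tested, S100a8, was not called. In WT, anti-PD1 against IgG raised 2 of 6 pan-leukocyte and 3 of 5 tested T and NK cell markers, beside 0.628% of all genes called. The log2 fold changes of the T cell attractants Cxcl9 and Cxcl10 there were -0.46 and -0.69, neither called.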

How the data were processed

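RNA-seq was done on tumor cells from 12 tumors, 3 per group. By the methods of the study, the authors mapped paired 100 bp reads on mm10 by STAR, handled alignments in Samtools, obtained counts from summarizeOverlaps and ran DESeq2; tool versions, annotation, counting mode and strand setting are not given in the sources used here. The authors deposited raw counts for 33219 features, 2 of them reporter sequences at 0. Groups were taken from the labels. Symbols from GENCODE M21 matched 32064 features.

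From these counts, TMM factors, CPM and the quasi-likelihood test were computed with edgeR 4.0.16 in R 4.3.3, in 1 fit of 12 samples with 8 residual degrees of freedom, over 14340 genes kept by filterByExpr, with Benjamini-Hochberg adjustment over all of them. The quasi-likelihood test in edgeR was chosen over the DESeq2 test of the study, which was run as an alternative (DESeq2 1.42.0), as was limma-voom (limma 3.58.1). Scripts were tested on simulated counts. CPM per kb divides by the exon length of the gene model. Likeness between genes was measured on log2 CPM with a prior count of 2. Every ligand of the list is named, as are called genes of related lists, at most 8 per list and comparison, preset receptors and upstream genes whatever their values (1 of them is counted with its list but not reported here), and the 2 genes nearest to each ligand. The members and lists were chosen with earlier results of these data known.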

Additional observations from a re-analysis of the deposited data

How the results depend on the processing

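Samples with the same replicate number in different groups did not deviate together (correlations from -0.178 to 0.205 over 13 pairs, and 3 of 10 samples correlated best with their own number), so the numbers were not taken as pairing. Numbers 4 and 5 each occurred in a single sample, WT IgG replicate 4 and A159V IgG replicate 5. A block on the number fits such samples exactly, which in effect removes them from comparisons with the IgG groups. With the replicate block, 2 ligands were called between the genotypes under IgG (Cxcl5 and Cxcl10), beside 5867 of the 14340 genes, and 4 under anti-PD1, beside 5018. It called 4 ligands for anti-PD1 in WT (4650 genes), 0 in A159V (0 genes) and 1 for the interaction (2760 genes). Without the block, 0.628% and 0.00697% of all genes were called for anti-PD1 in WT and for the interaction. Between A159V IgG and WT IgG, 4 ligands were called with upper-quartile scaling (3650 of 14340 genes) and 1 with at least 10 counts in every sample (2781 of 12137). None was called with limma-voom (3964 of 14340) or with only the groups compared in the fit (1399 of 13575). With each sample left out, 0 to 4 were called, beside 2578 to 4717 genes. Upper-quartile scaling moved the median of all genes there from 0.02 to -0.12. Under anti-PD1, 0 were called with the pan-leukocyte score as a covariate and 1 to 4 with each sample left out. For anti-PD1 in WT, 1 was called with no filter (771 of 23702 genes) and 2 with DESeq2 (1478 of 14340 genes). When 1 sample was omitted, 0 to 3 were called there, beside 1 to 3458 genes. In A159V every alternative gave 0, as did leaving out each sample (0 to 0). The interaction had 1 called with DESeq2, beside 295 genes, and 0 to 1 with each sample left out, beside 0 to 1182 genes.

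Signs reversed in values that were not called. Between the genotypes under IgG, Cxcl2 was -0.020 with upper-quartile scaling and Cxcl9 0.15 with the replicate block. Under anti-PD1, Cxcl14 was 0.11 with limma-voom, Cxcl12 0.42 with thinned libraries, and with the leukocyte covariate Cxcl1 was -0.20, Cxcl12 5.70 and Cxcl14 6.58. Cxcl16 for anti-PD1 in WT was -0.33 with the covariate and -0.081 with thinned libraries, its interaction was 0.076 with the covariate, and Cxcl10 in A159V was -0.023 with the replicate block. With each sample left out, the ranges that crossed 0 were, under IgG, Cxcl9 -0.43 to 0.12, Cxcl16 -0.54 to 0.027 and Cxcl2 -0.16 to 0.69. Under anti-PD1 they were Cxcl1 -0.087 to 0.27, Cxcl12 -0.92 to 0.56 and Cxcl14 -0.93 to 0.95. For anti-PD1 in WT they were Cxcl3 -1.04 to 0.38, Cxcl14 -2.76 to 0.10 and Cxcl16 -0.022 to 0.54, in A159V Cxcl1 -0.24 to 0.18, and for the interaction Cxcl5 -1.36 to 0.36. The cause was not tested. Of 468 values of single ligands under the other alternatives, 428 kept their direction and side of the threshold, 7 lost a call, 22 gained one and 11 reversed. Of 360 with a sample left out, these numbers were 317, 12, 11 and 20. Depth limits Cxcl12, Cxcl14, Cxcl5 and Cxcl16 most, which had 0 to 91 counts in a sample, and genotype rests on 1 clone.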
